A study of Mus musculus with 6 samples.

Results

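Fibronectin and 9 adhesive or matricellular glycoproteins were followed in the aortic transcriptome of mice lacking miRNA-26b. The 10 genes are *Fn1*, *Thbs1*, *Thbs2*, *Thbs3*, *Thbs4*, *Postn*, *Tnc*, *Sparc*, *Sparcl1* and *Vtn*. They were taken by symbol from a table of 55341 genes, of which 24416 had a count in any library. All 10 passed the filter on low counts, among 16017 genes tested. They were selected on their function as matrix glycoproteins with the counts and genotype differences of these same libraries in view, so those differences are given as a description.

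RNA of aortic vessels was sequenced from 3 miRNA-26b-/- mice (libraries M2626, M2627 and M2628) and 3 miRNA-26b+/+ mice (M2629, M2630 and M2631). The labels give the strain as C57BL/6NCrl for all 6 and call the wild type naive. Per the methods, mice were 8 weeks old and fed chow, and the aortic arch and thoracic aorta were taken after perfusion. The knockout lacks a floxed segment with the miRNA in an intron of *Ctdsp1*. That segment was removed with tamoxifen and CreERT2, which was then bred out. The embryonic stem cells were of 129/Sv origin, so DNA around the locus can differ between the genotypes by strain as well as by the deletion. The paper describes the first strains as mixed 129/Sv and C57BL/6, and its methods place all mice on C57BL/6. DNA elsewhere in the genome could therefore differ by strain too, and how much 129/Sv DNA remained is not given. *Mir26b* itself had 20 counts in M2630 and 0 in the other 5 libraries, too few to check the genotype. Whether the animals shared litters or days is not given, and the p-values measure only the spread between these libraries.

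Fibronectin is the fibrillar glycoprotein through which integrins hold cells to the matrix, and it is laid down in the artery wall where flow is disturbed. Matricellular proteins are secreted into the matrix, add little to its strength, and instead tune adhesion, growth factor activity and collagen assembly. They are known for low levels in resting adult tissue and high levels in repair. A miRNA pairs through its seed, bases 2 to 8, mostly with sites in 3′ UTRs, and thereby lowers the mRNA.

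The mature miRNA-26 sequences (RefSeq, GRCm38.p6) are printed with the seed in capitals, since the deleted gene and its relatives share seeds. miRNA-26b comes from chr1:74394324-74394344 (5p) and chr1:74394360-74394381 (3p), plus strand. miRNA-26a-5p comes from 2 genes, on chromosomes 9 and 10.
mmu-miR-26b-5p: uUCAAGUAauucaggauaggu
mmu-miR-26a-5p: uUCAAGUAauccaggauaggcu
mmu-miR-26b-3p: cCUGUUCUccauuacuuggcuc
mmu-miR-26a-2-3p: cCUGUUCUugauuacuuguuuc
mmu-miR-26a-1-3p: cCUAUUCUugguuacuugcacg
The 5p strands of miRNA-26b and miRNA-26a carry the same seed, UCAAGUA. The 3p strand of miRNA-26b shares its seed with that of *Mir26a-2* and not with that of *Mir26a-1*.

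The longest annotated 3′ UTR of each of the 10 genes was searched on its own strand for the letters that pair with these seeds. The 7-base 5p site, TACTTGA, was in 0 of the 10, against 9.67% of 21020 genes with a 3′ UTR. The longer form with a following A, TACTTGAA, which contains the 7-base site, was also in 0 (4.19% of genes), as was the 3p site, AGAACAG (14.3%). These UTRs ran from 77 bases in *Vtn* to 2104 in *Thbs1*. Among UTRs of like length, the share with the 7-base 5p site ran from 0.438% for *Vtn* to 13.6% for *Thbs1*.

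The shorter site for bases 2 to 7 of the seed, ACTTGA, was in 31.5% of all genes and in 3 of the 10. Those 3 stretches are the nearest matches to the miRNA-26 5p seed in these genes and are printed 5′ to 3′ on the gene's strand (GRCm38), with the match in capitals. They lie in the 3′ UTR of *Thbs1* (chr2:118125627-118125656, plus), *Postn* (chr3:54390803-54390832, plus) and *Sparc* (chr11:55394670-55394699, minus).
Thbs1: ttccacacaggcACTTGAgcaagcagggaa
Postn: tgttatttttacACTTGAtttatatcctcg
Sparc: caccccctgccACTTGAAaccttctactaa
In *Sparc* the match is followed by the A that strengthens short sites in general. The share of all genes with this longer form was not counted. These are matches of letters only, and no binding was measured.

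The libraries held 25706728 to 33345037 counts, and the 10 genes took 1.215% to 1.506% of them. Smooth muscle markers were abundant in all 6 libraries, with a summed level of 32920 to 44270 CPM (counts scaled to a library total common to all libraries), so the libraries do not hold RNA of endothelial cells alone, the cell type named in the labels. The 9 endothelial markers summed to 503.1 and 533 CPM in M2626 and M2627, to 1792 in M2628 and to 1240, 1702 and 1504 in the miRNA-26b+/+ libraries. Fibroblast markers (5006 and 5741 CPM against 6213 to 8355) and macrophage markers (329.5 and 404.3 against 557.2 to 943) were also at their lowest in M2626 and M2627. Schwann cell markers summed to 330.6 to 478.5 CPM in miRNA-26b-/- and 224 to 288.5 in miRNA-26b+/+. In bulk tissue, fewer cells of a type and less RNA per cell cannot be told apart.

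The aortic levels of the 10 genes spanned 3 orders of magnitude. In TPM (counts per exon length, scaled to 1 total in every library), *Sparc* was the highest with 3866 ± 774 (SD over the 6 libraries), the 26th of all genes. It encodes osteonectin, a secreted collagen chaperone. *Fn1* followed with 1536 ± 316 TPM (57th), *Postn*, encoding the collagen-binding protein periostin, with 794.0 ± 98.1 (129th), and *Sparcl1*, encoding the anti-adhesive SPARC relative hevin, with 553.0 ± 98.3 (214th). The ranges of these 4 over the 6 libraries did not overlap between neighbours in the order.

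A middle group lay well below these 4. *Tnc*, the large hexameric glycoprotein tenascin-C, had 94.68 ± 6.73 TPM, *Thbs1* 86.07 ± 50.4, *Thbs2* 50.74 ± 7.65 and *Thbs3* 41.57 ± 13.5. Each gene's range in this group overlapped that of the next. *Thbs1* (26.29 to 157.9 TPM) overlapped *Tnc* and *Thbs2* through its wide range. *Thbs2* (40.1 to 59.74) and *Thbs3* (29.29 to 61.05) overlapped each other. *Tnc*, with at least 86.9 TPM, lay above *Thbs2* (at most 59.74) and *Thbs3* (at most 61.05) in every library. *Thbs4* (3.988 ± 2.02 TPM) and *Vtn* (3.135 ± 2.15), the gene of the liver-made plasma protein vitronectin, were lowest, and their ranges overlapped. RPKM in place of TPM gave the same overlaps.

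**Figure D1:**
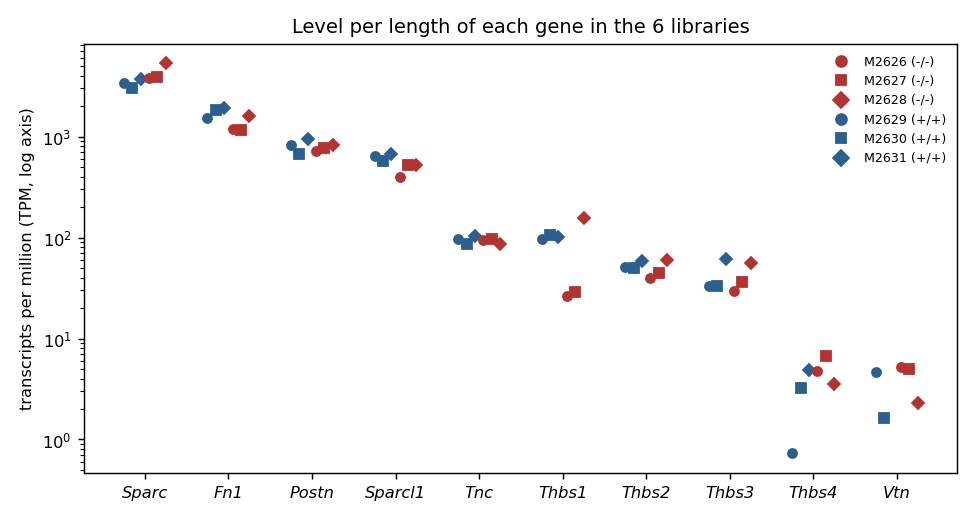
Level per length (TPM, log axis) of each gene in each library, 1 point per library, blue for miRNA-26b+/+ and red for miRNA-26b-/-. *Sparc*, *Fn1*, *Postn* and *Sparcl1* stand above the rest without overlap, and *Vtn* in M2631 is at 0 and has no point.

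The spread across the 6 libraries differed as much as the levels. Measured as the root mean square deviation of log2 CPM from its own mean, *Tnc* (0.113) and *Postn* (0.131) were the steadiest, at the 3.5 and 6.1 percentile of all genes tested. *Thbs2* (0.149), *Sparcl1* (0.20), *Fn1* (0.24) and *Sparc* (0.243) lay at or under the 27.8 percentile. *Thbs3* (0.365) lay near the middle. *Thbs1* (0.934), *Thbs4* (1.02) and *Vtn* (1.98) lay at the 78.7, 80.3 and 89.6 percentile, the last 2 at low counts. *Thbs1* is therefore the single well-expressed gene of the 10 whose level moved strongly between mice.

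Aortas of knockout and wild type mice were compared to ask which of these genes depend on miRNA-26b. After Benjamini-Hochberg adjustment over the 16017 genes tested, 0 of the 10 passed an adjusted p under 0.05 in edgeR's quasi-likelihood test, against 1 gene in all (0.00624%). DESeq2 and limma voom also called 0 of the 10. At an unadjusted p under 0.05, 3 of the 10 were counted, against 6.46% of all genes. *Sparc* was on the higher side in miRNA-26b-/- (3.4% of all genes), and *Fn1* and *Sparcl1* were on the lower side (3.07%). The libraries of the genotypes did not overlap for 2 of the 10, against 11.5% of all genes. *Sparc* lay higher without overlap (5.65% of all genes) and *Sparcl1* lower (5.88%). The direction was higher for 4 and lower for 6, with a median log2 fold change of -0.02, beside 0.01 for all genes tested.

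**Figure D2:**
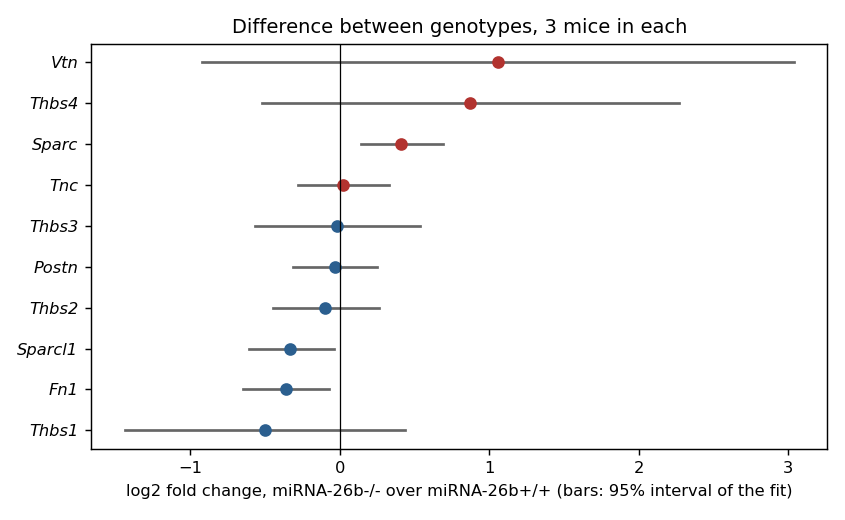
Log2 fold change of miRNA-26b-/- over miRNA-26b+/+ for each gene (points, red above 0 and blue below, 3 mice per genotype) with the 95% interval of the edgeR fit (bars). The intervals of *Sparc* (0.14 to 0.69), *Sparcl1* (-0.61 to -0.04) and *Fn1* (-0.65 to -0.07) leave out 0, and none of the 10 passed after adjustment.

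**Figure D3:**
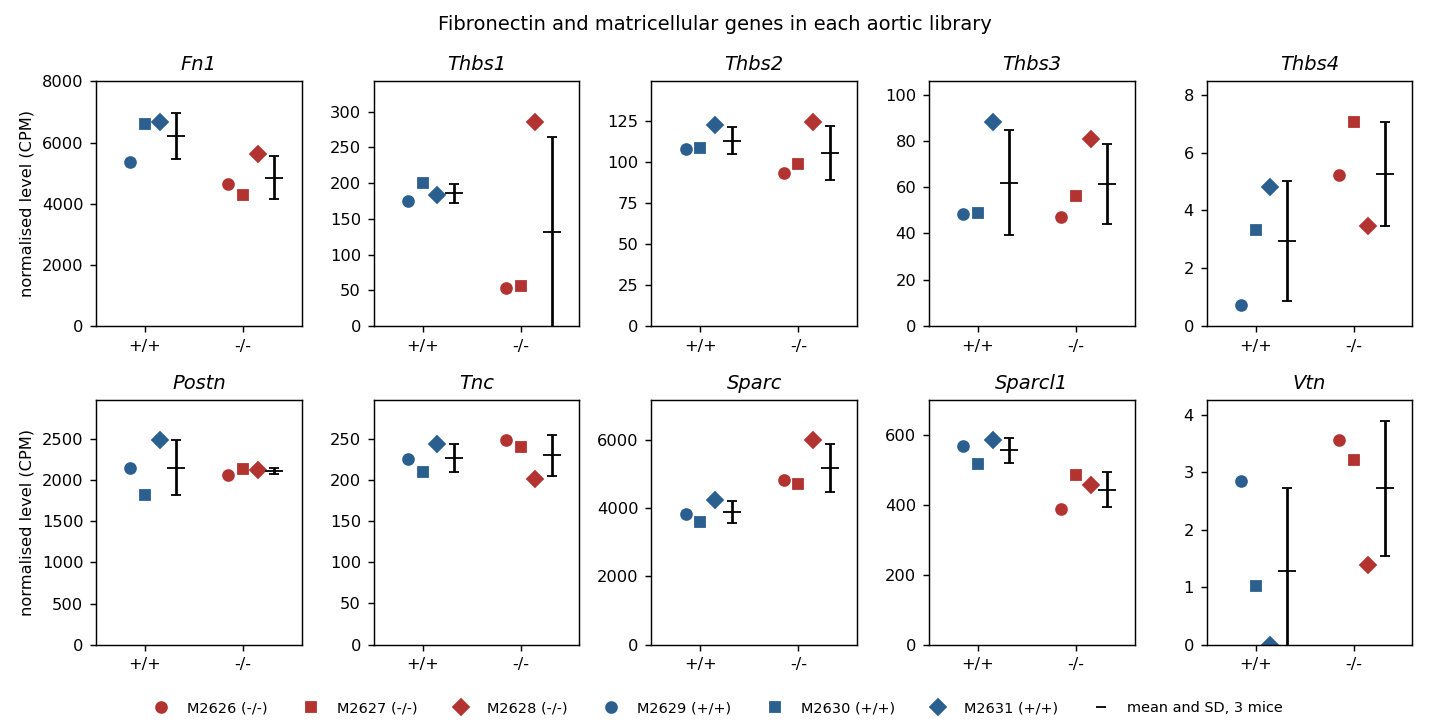
Normalised level (CPM, linear axes from 0) of each gene in each library, with the mean and SD of 3 mice beside the points. A lower SD bar that would pass below 0 is drawn to the axis. *Sparc* and *Sparcl1* separate by genotype, and *Thbs1* is low in M2626 and M2627 and high in M2628.

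The fibril-forming member is *Fn1* (chr1:71585520-71653200, minus strand). It had 4630, 4271 and 5626 CPM in M2626, M2627 and M2628, and 5347, 6615 and 6675 CPM in M2629, M2630 and M2631. The values of the genotypes overlap, since M2628 lies above M2629, and the other 2 miRNA-26b-/- libraries lie below every miRNA-26b+/+ library. The means were 4843 ± 702 and 6212 ± 750 CPM (SD, n = 3 each). The log2 fold change of *Fn1* was -0.36 (SE 0.136, edgeR adjusted p = 0.736, unadjusted 0.0186). It kept its sign in 16 of 16 alternative fits and had an unadjusted p under 0.05 in 11 of them. Leaving out 1 library at a time gave -0.48 to -0.28, and the unadjusted p of edgeR rose above 0.05 without M2626, M2627, M2630 or M2631, the highest being 0.0996.

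*Fn1* lies 2.74 Mb from *Mir26b* on chromosome 1. How far stem cell DNA reaches around the deletion is not given in the sources used here. Of the 61 genes listed between them, 19 were tested and 0 passed an adjusted p under 0.05 (edgeR). At an unadjusted p under 0.05 there were 2 of 19 (10.5%, beside 6.46% of all genes), and both were lower in miRNA-26b-/-. *Gm28364* had 12.98 to 16.06 CPM in miRNA-26b-/- and 21.21 to 24.61 in miRNA-26b+/+, without overlap (log2 fold change -0.67, SE 0.277). *Igfbp2*, an insulin-like growth factor binding protein, had 10.79 to 31.24 CPM against 30.54 to 39.62, with overlap (-0.73, SE 0.31). The third smallest p was that of *Catip*, at 0 in the 3 miRNA-26b-/- libraries and at 1.142, 0 and 1.291 CPM in the others.

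The median log2 fold change of the 19 genes was 0, with 9 higher and 9 lower, and *Fn1* had a smaller p than any of them. *Apol7d*, which overlaps the start of *Fn1*, is not among the 19. An effect of linked stem cell DNA on *Fn1* and one of the missing miRNA cannot be told apart here. M2626 and M2627, the lowest libraries for *Fn1*, were also lowest in the summed endothelial, fibroblast and macrophage markers. M2628, the highest in these sums, lay between M2629 and M2630 for *Fn1*. The part of cell content in the *Fn1* values was not tested.

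Reads were counted without strand and for every gene they touched, and 292 exon bases of *Fn1* (2.5%) also belong to *Apol7d* on the other strand. *Apol7d* had 1430, 2602 and 3014 counts in miRNA-26b-/- and 3604, 4260 and 4518 in miRNA-26b+/+. It was lower without overlap (log2 fold change -0.81, SE 0.211, unadjusted p = 0.0017, adjusted 0.731 in edgeR), with a smaller p than *Fn1*, and how many of these reads came from *Fn1* cannot be told apart. The same holds for 208 bases (3.42%) of *Thbs1* with *Gm29233*, 318 (6.59%) of *Thbs3* with *Mtx1* and 176 (2.26%) of *Tnc* with *8030451A03Rik*. The other 6 genes shared no exon base.

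Among the SPARC family, *Sparc* (chr11:55394500-55423183, minus strand) had 4817, 4717 and 5991 CPM in miRNA-26b-/- and 3821, 3590 and 4243 in miRNA-26b+/+. Every miRNA-26b-/- library was above every miRNA-26b+/+ library, and M2628 was the highest. The means were 5175 ± 709 and 3885 ± 331 CPM (SD, n = 3 each), a fold change of 1.33. On the log2 scale the *Sparc* difference was 0.41 (SE 0.129, edgeR adjusted p = 0.734, unadjusted 0.00593). In all 16 alternative fits it was higher with an unadjusted p under 0.05, from 0.30 to 0.48 with 1 library left out, and in 0 of them did it pass after adjustment, the lowest adjusted p being 0.0749 with DESeq2.

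*Sparcl1* (chr5:104079111-104113733, minus strand) ran the other way. It had 388.1, 485.1 and 457.6 CPM in miRNA-26b-/- and 569.3, 516.7 and 585.6 in miRNA-26b+/+. Again the genotypes did not overlap, with M2627 and M2630 nearest to each other. The means were 443.6 ± 50 and 557.2 ± 36 CPM (SD, n = 3 each). The log2 fold change of *Sparcl1* was -0.33 (SE 0.134, edgeR adjusted p = 0.736, unadjusted 0.0272). It was lower in 16 of 16 alternative fits, with an unadjusted p under 0.05 in 12 of them. The unadjusted p rose above 0.05 with the likelihood ratio test and, in edgeR, without M2626, M2629 or M2631, the highest being 0.0983 without M2626.

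Ratios within a library were added after these values were seen, and are given with no test. *Sparc* over *Fn1*, by TPM, was 3.21, 3.41 and 3.28 in miRNA-26b-/- and 2.21, 1.67 and 1.96 in miRNA-26b+/+. *Sparc* over *Sparcl1* was 9.62, 7.54 and 10.1 against 5.21, 5.39 and 5.62. Neither ratio overlapped between genotypes, which for *Sparc* over *Sparcl1* follows from the separation of both genes. *Fn1* over *Sparcl1*, the 2 genes that were both lower, was 3.0, 2.21 and 3.09 against 2.36, 3.22 and 2.87, and overlapped.

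**Figure D4:**
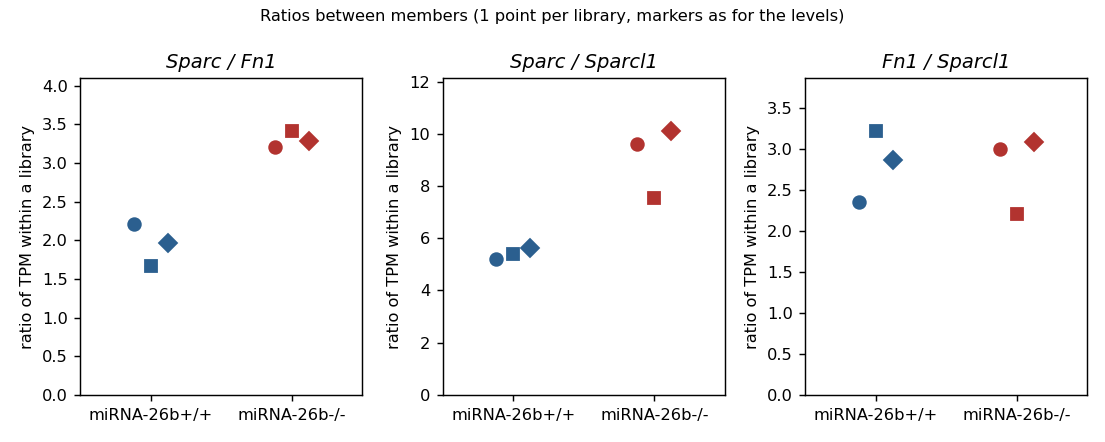
Ratios of TPM within each library for 3 pairs of genes, 1 point per library, linear axes from 0. Circles, squares and diamonds are M2626, M2627 and M2628 in red and M2629, M2630 and M2631 in blue. *Sparc* over *Fn1* and *Sparc* over *Sparcl1* separate by genotype, and *Fn1* over *Sparcl1* (2.21 to 3.22) does not.

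Thrombospondins fall into trimers (*Thbs1* and *Thbs2*), which inhibit blood vessel growth, and pentamers (*Thbs3* and *Thbs4*). *Thbs1* (chr2:118111876-118127133, plus strand), which also activates latent TGF-beta, had 53.3 and 55.96 CPM in M2626 and M2627 and 285.9 in M2628. In M2629, M2630 and M2631 it had 174.9, 200.7 and 182.8 CPM. The miRNA-26b+/+ libraries lay within 1.15-fold of each other, and the miRNA-26b-/- libraries lay on both sides of them, 5.36-fold apart. The means were 131.7 ± 134 and 186.1 ± 13.2 CPM (SD, n = 3 each).

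The log2 fold change of *Thbs1* was -0.50 (SE 0.441, 95% interval -1.44 to 0.44, edgeR adjusted p = 0.904). The value moved with each miRNA-26b-/- library left out. Without M2628, *Thbs1* was at -1.77 (SE 0.173, edgeR adjusted p = 6.03e-05), and it was at -0.14 without M2626 and -0.12 without M2627. The fit without M2628 called more genes in general, with 82 of all genes at an adjusted p under 0.05, against 1 with all 6 libraries. With limma voom on all 6 libraries *Thbs1* was at -0.98 (adjusted p = 0.869).

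The genes whose level over the 6 libraries was most like that of *Thbs1* were *Stab1*, *Pecam1* and *Megf6*, by the root mean square difference of centred log2 CPM (0.107, 0.153 and 0.161) among 9767 genes of at least 10 CPM. *Stab1* encodes stabilin-1, a scavenger receptor of sinusoidal endothelium and macrophages that binds SPARC, and had 60.69, 61.14 and 309.7 CPM in miRNA-26b-/- and 180.2, 256.7 and 223.8 in miRNA-26b+/+. *Pecam1*, the endothelial junction protein CD31 and one of the endothelial markers, had 184.6, 174.6 and 716.5 CPM against 487.9, 631.3 and 593.4. Both genes were lowest in M2626 and M2627 and highest in M2628, as were the summed endothelial, fibroblast and macrophage markers given above. The endothelial markers did not all do so. *Kdr* was lowest in M2628 (8.829 CPM, against 22.04 and 29.66 in M2626 and M2627), *Erg* in M2626 (75.42) lay above M2629 and M2630 (62.18 and 67.23), and *Cldn5* was highest in M2631 (38.72). Of the 9 endothelial markers 8 were lower in miRNA-26b-/-, beside 7789 of all 16017 genes tested. Of these 8, 1 (*Tek*) had an unadjusted p under 0.05, beside 3.07% of all genes on the lower side, and 0 passed after adjustment (edgeR).

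As a percentage of the summed endothelial markers of its library, *Thbs1* was 10.6, 10.5 and 16.0 in miRNA-26b-/- and 14.1, 11.8 and 12.2 in miRNA-26b+/+, a span of 1.52-fold. This scaling was chosen after the values were seen, and the sum holds *Pecam1*, itself found by its likeness to *Thbs1*, so the narrow span is no independent support. The part of endothelial, fibroblast or macrophage content in the *Thbs1* values was not tested.

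**Figure D5:**
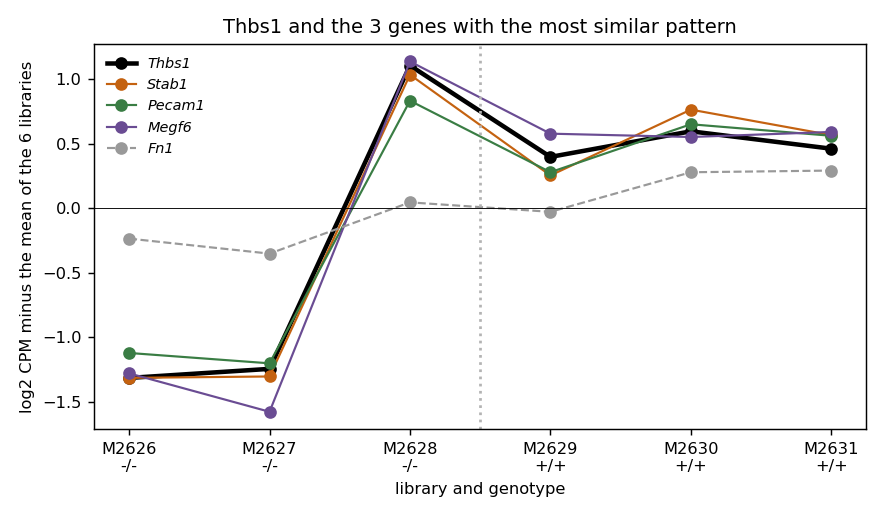
Log2 CPM minus the mean of the 6 libraries for *Thbs1*, the 3 genes most like it and *Fn1*, by library, with the lines only joining points of 1 gene. *Thbs1*, *Stab1*, *Pecam1* and *Megf6* are at their lowest in M2626 and M2627 and at their highest in M2628, while *Fn1* stays between -0.35 and 0.29.

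*Thbs2* (chr17:14665500-14694235, minus strand) had 93.75, 99.12 and 124.7 CPM in miRNA-26b-/- and 108.1, 108.7 and 122.6 in miRNA-26b+/+. M2626 and M2627 were lowest and M2628 highest, as for *Thbs1*, but over a 1.33-fold range, and the genotypes overlapped. Its log2 fold change was -0.10 (SE 0.166, 95% interval -0.45 to 0.26, edgeR adjusted p = 0.96). *Thbs3* (chr3:89215180-89226837, plus strand) had 47.17, 56.13 and 80.67 CPM against 48.5, 49.01 and 88.22. One library of each genotype, M2628 and M2631, stood above the other 4. The means of *Thbs3* were 61.32 ± 17.3 and 61.91 ± 22.8 CPM (SD, n = 3 each), and the interval of its log2 fold change was -0.57 to 0.54.

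*Thbs4* (chr13:92751590-92794818, minus strand), best known from tendon, muscle and nerve, was scarce, with 134, 237 and 98 counts in miRNA-26b-/- and 22, 91 and 145 in miRNA-26b+/+. Scaled to depth these were 5.237, 7.065 and 3.475 CPM against 0.7181, 3.316 and 4.798. The genotypes overlapped, with M2627 highest and M2629 lowest. The log2 fold change of *Thbs4* was 0.87, with a 95% interval of -0.52 to 2.27 (edgeR adjusted p = 0.866), which covers changes in either direction. M2627 was also highest in the summed markers of skeletal muscle (88.27 CPM, against 3.243 to 30.68 in the other 5 libraries) and sympathetic neurons (399.4 against 63.51 to 153.9). The same library was highest in those of adipocytes (1870 CPM), cardiac muscle (318.8) and mesothelium (27.49). M2629, lowest for *Thbs4*, was not lowest in skeletal muscle markers (6.495 CPM, against 3.243 in M2631). Schwann cell markers summed to 478.5, 477.7 and 330.6 CPM in M2626, M2627 and M2628, and to 224, 243.5 and 288.5 in M2629, M2630 and M2631. M2629 was lowest and M2630 next in this sum and in *Thbs4*, and M2626 and M2627 were highest in both. The part of any of these tissues in the *Thbs4* values was not tested. Markers of cartilage and tendon did not follow it, at 182.6 CPM in M2627 within a range of 146.5 to 263.2.

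Periostin and tenascin-C, which bind each other and collagen in healing tissue, differed little between the genotypes. *Postn* (chr3:54361109-54391037, plus strand) had 2072, 2145 and 2125 CPM in miRNA-26b-/- and 2152, 1822 and 2489 in miRNA-26b+/+. The knockout libraries lay within 1.04-fold of each other and inside the range of the wild type. The log2 fold change of *Postn* was -0.03 (SE 0.13, 95% interval -0.31 to 0.25, edgeR adjusted p = 0.991).

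*Tnc* (chr4:63959785-64047015, minus strand) had 248, 240.2 and 201.3 CPM in miRNA-26b-/- and 225.6, 209.6 and 243.3 in miRNA-26b+/+. Its lowest and its highest value were both from miRNA-26b-/- mice. The log2 fold change of *Tnc* was 0.02 (SE 0.144, 95% interval -0.28 to 0.33, edgeR adjusted p = 0.992). For both genes the interval leaves out a change of 1.5-fold in either direction. Of all pairs among the 10 genes, *Postn* and *Tnc* were the closest in their levels over the libraries, with a root mean square difference of 0.123. They were also the steadiest of the 10, and steady genes are close by this measure in any case. The distance therefore does not show that they vary together.

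*Vtn* (chr11:78499091-78502324, plus strand) had 91, 108 and 39 counts in miRNA-26b-/- and 87, 28 and 0 in miRNA-26b+/+. In CPM these were 3.556, 3.22 and 1.383 against 2.84, 1.02 and 0. The 0 in M2631 allows up to 3 counts, or 0.0993 CPM. The genotypes overlapped, and the 95% interval of the log2 fold change was -0.92 to 3.04, which covers changes in either direction. The 6 hepatocyte markers, of which 1 passed the filter on low counts, summed to 5.197, 3.637 and 0 CPM in M2626, M2627 and M2628. In M2629, M2630 and M2631 they summed to 5.32, 0 and 0 CPM. M2626, M2627 and M2629, the libraries with a sum above 0, were also the highest for *Vtn*. The part of liver RNA in the *Vtn* values was not tested.

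For *Fn1*, *Postn* and *Tnc*, too, the genes of most similar level over the 6 libraries were found by the measure used for *Thbs1*. *Fn1* was closest to *Atp11b*, a phospholipid flippase (0.0192, with 42.6 to 57.8 CPM in miRNA-26b-/- and 54.18 to 68.37 in miRNA-26b+/+), then *Map1s* (0.0445) and *Golim4* (0.0563). *Postn* was closest to *Ptprs* (0.0432), *Akt1* (0.0457) and *Lamtor3* (0.0505), and *Tnc* to *Eml1* (0.0275), *Igfbp7* (0.0282) and *Rbm6* (0.0309). Steady genes are close to many others, so these distances say little for *Postn* and *Tnc*. A minimum of 1 CPM in place of 10 left the same 3 genes for each.

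The cell surface receptors of these proteins were counted as a list of 25 genes, of which 24 were tested and *Itgb6* was at 0 throughout. After adjustment 0 of 24 passed (edgeR). At an unadjusted p under 0.05 there were 4 of 24, beside 6.46% of all genes, 1 higher and 3 lower, and 17 of 24 were on the lower side (median log2 fold change -0.10, against 0.01 for all genes). *Itgb1*, the beta chain of most fibronectin-binding integrins, had 2365, 2136 and 2158 CPM in miRNA-26b-/- and 2655, 2739 and 2818 in miRNA-26b+/+, without overlap (-0.30, SE 0.114, unadjusted p = 0.0184 in edgeR). *Itga5*, its partner in the classical fibronectin receptor, had 297.4, 263.1 and 482.1 against 394, 491.5 and 549.3 CPM, with overlap (-0.46, SE 0.201). *Itga5* was lowest in M2626 and M2627, as the summed endothelial, fibroblast and macrophage markers were. It was highest in M2631, whereas these sums were highest in M2628. The part of cell content in the *Itga5* values was not tested. *Itgb8*, which with the alpha v chain binds latent TGF-beta, was higher without overlap, at 13.3 to 18.27 against 4.566 to 10.84 CPM (0.97, SE 0.389).

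Of 23 matrix partners and processing enzymes 22 were tested, with *Plg* at 0 throughout, and 0 passed after adjustment (edgeR). At an unadjusted p under 0.05 there were 2 of 22, beside 6.46% of all genes, and 10 were higher and 12 lower (median -0.05). *Eln*, the elastin of the aortic lamellae, had 5616, 6682 and 7345 CPM in miRNA-26b-/- and 4682, 4875 and 5048 in miRNA-26b+/+. It was higher in every miRNA-26b-/- library than in any miRNA-26b+/+ library, as *Sparc* was (log2 fold change 0.43, SE 0.124, unadjusted p = 0.00371 in edgeR). *Col6a3*, a chain of beaded microfibrils, was lower, at 529.3 to 633.7 against 623.4 to 801.7 CPM (-0.31, SE 0.138). *Col1a1*, a chain of the collagen that SPARC binds, had 2563, 2826 and 4738 CPM against 2264, 2343 and 3047, with overlap (0.40, unadjusted p = 0.0584 in edgeR).

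Of 11 further thrombospondin, tenascin, SPARC and periostin family genes, 11 were tested and 0 had an unadjusted p under 0.05 (edgeR), beside 6.46% of all genes. *Smoc1*, a SPARC-related basement membrane protein, had 393.3 to 514.8 CPM in miRNA-26b-/- and 492.5 to 628.6 in miRNA-26b+/+. *Spock1* had 0, 5.008 and 1.454 CPM against 0, 1.02 and 0, and *Tnn*, encoding tenascin-W, had 0, 1.371 and 0 against 0.6201, 0.1822 and 3.177, both near the limit of detection.

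Of 7 further matricellular genes, the CCN family and osteopontin, 6 were tested and *Ccn6* was at 0 throughout. Of the 6, 0 had an unadjusted p under 0.05 (edgeR), beside 6.46% of all genes, a share at which few of so short a list would be counted. *Ccn2*, the connective tissue growth factor, was at 2840 to 3735 against 2973 to 4563 CPM, *Ccn3* at 1047 to 1361 against 1287 to 1410, and *Ccn5* at 234.4 to 265.7 against 231.1 to 260.5. In each of these 3 the genotypes overlapped.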

How the data were processed

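Libraries of aortic RNA were made with a kit that does not mark strand. The authors aligned reads with STAR to GRCm38 (mm10) and deposited raw read counts per gene symbol, made with featureCounts 1.6.4 over exons without strand, a read over several genes counting for each. The file header names GENCODE M21 and the methods another release. A second deposited table, with log2 CPM and the authors' own comparison, was not used here.

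Counts were analysed with edgeR 4.0.16 (R 4.3.3): TMM scaling, a minimum summed count of 2 and over 1 CPM in 2 or more libraries, and the quasi-likelihood test (genotype only, prior count 0.125) with Benjamini-Hochberg adjustment over 16017 genes. limma 3.58.1 (voom), DESeq2 1.42.0, other scalings and filters, and leaving out each library were alternatives. TPM used the exon lengths of the deposited table. Libraries held 25706728 to 33345037 counts, none were identical, and floors for a count of 0 cover counting error only. On simulated counts with 200 genes changed by 2 on the log2 scale, 86% were called and the median estimate was 2.02. Only well-counted genes were changed, and by far more than *Sparc*, *Fn1* or *Sparcl1* differed here. The share called therefore does not tell how often differences of their size would be called.

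The genes and lists were chosen with earlier results of these data known. Named beside the 10 genes are, of each list, the 3 genes of smallest p and any passing after adjustment. For *Fn1*, *Thbs1*, *Postn* and *Tnc* the 3 genes most alike over libraries are named, as are genes sharing exons and those between *Fn1* and *Mir26b*. *Tek* was named outside this rule, after its value was seen.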

Additional observations from a re-analysis of the deposited data

How the results depend on the processing

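Of 160 refits of single genes (16 alternatives for each of the 10), 8 reversed, 1 came to 0 (*Thbs3* with library size only), 1 passed (*Thbs1* without M2628), and the rest kept the direction and the side of the threshold. Reversals were confined to genes near 0. *Thbs3* was at -0.02, at 0.01 with limma voom, and at -0.26 to 0.32 with 1 library left out (0.13 without M2626, 0.05 without M2627). *Postn* ran from -0.13 to 0.08 and *Tnc* from -0.04 to 0.11 (-0.01 without M2627, -0.02 without M2630). Of the 10 genes, 3 had an unadjusted p under 0.05, 1 with the likelihood ratio test and 1 to 4 with 1 library left out. After adjustment it was 0, and 0 to 1 with 1 library left out. Over all genes 1 passed after adjustment, with 57 in DESeq2, 3 in limma voom, 0 with the earlier quasi-likelihood method and 19 with the likelihood ratio test. With 1 library left out it was 0 to 82, the most without M2628, and 686 to 1692 genes had an unadjusted p under 0.05 against 1035 with all 6. The share of these that was higher was 52.6%, and 43.1% with limma voom. The 6-base site ACTTGA was found in 3 of the 10 genes, in *Sparc* with a following A, and the 7-base site TACTTGA in 0. The causes were not tested. No paired analysis was possible because the labels give the genotypes no shared replicate numbers. With 3 mice per genotype, an exact permutation test of 1 value cannot go below 0.1.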

Other observations

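Likeness over the 6 libraries was also computed for *Sparc* and *Sparcl1*, chosen after their values were seen. *Sparc* was closest to *Usp3*, which had 21.37 to 26.98 CPM in miRNA-26b-/- and 15.16 to 17.84 in miRNA-26b+/+ (root mean square difference 0.0622). *Sparcl1* was closest to *Wdr43*, a ribosome biogenesis factor, with 23.64 to 29.01 CPM against 30.03 to 34.65 (0.0358), and to *Nfe2l2*, the transcription factor NRF2 of the oxidative stress response, with 68.51 to 89.43 against 95.22 to 101.6 (0.0576). The genotypes did not overlap in these 3 genes, which were picked for likeness to genes without overlap.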
